A study of Mus musculus with 2 samples.

Results

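The genes described here encode the subunits of the mitochondrial respiratory chain and ATP synthase that are made from the nuclear genome. They were taken as the protein-coding mouse genes whose symbols start with Nduf, Uqcr, Cox4 to Cox8 or Atp5, together with Sdha, Sdhb, Sdhc and Sdhd. Of 42462 genes that matched the GENCODE M21 annotation, 21473 were protein-coding and 93 met this rule. The 93 genes were 75 subunits of the form used in most tissues, 9 alternative paralogs, 8 complex I assembly factors (Ndufaf1 to Ndufaf8) and Atp5s, the factor B of ATP synthase. Of the 75 subunits, 36 belong to complex I, 4 to complex II, 8 to complex III, 11 to complex IV and 16 to complex V, with Ndufa4 placed in complex IV, where its protein sits.

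The forebrain of B6NCrl mouse embryos, taken at embryonic day 13.5, gave the total RNA of 2 libraries, which form 1 group. The input was 10 ng of RNA per library, from pooled male and female embryos with no labelled allele or treatment. Both libraries carry the same donor code and are called biological replicates, so the spread between them may be partly technical. They held 35378462 (replicate 1) and 36793284 (replicate 2) estimated counts. No test between conditions exists with 1 group. Errors are the SD of 2 libraries (n = 2). Levels are given in TPM, a relative abundance that corrects for gene length. The 8 forebrain regulators examined all had at least 1 TPM in both libraries, with a median of 69.4 ± 6.93 TPM. The median of all protein-coding genes was 3.92 TPM, and 59% of them had at least 1 TPM in both libraries. Regulators of other brain regions were not examined, so these values do not check the labelled tissue against other regions. As bulk tissue was sequenced, fewer cells of a type and less RNA per cell cannot be told apart.

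The respiratory chain passes electrons from NADH (complex I) and succinate (complex II) through ubiquinone, complex III and cytochrome c to oxygen at complex IV. Complexes I, III and IV pump protons across the inner mitochondrial membrane, and complex V uses the gradient to make ATP. Some subunits come from the mitochondrial genome, but most are nuclear and imported, and several subunits of complex IV exist as tissue forms such as the heart and skeletal muscle forms Cox6a2, Cox7a1 and Cox8b.

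Every one of the 75 ubiquitous subunit genes was transcribed in both libraries, and most were abundant. Of the 93 genes 89 had at least 1 TPM in both libraries, against 59% of all protein-coding genes. At least 100 TPM in both libraries was found for 73 of the 93 genes and for 72 of the 75 subunits, against 7.42% of all protein-coding genes. The exceptions among the 75 were Ndufb4, Ndufa11 and Ndufs1. Together the 93 genes took 3.08% of all TPM in replicate 1 and 3.18% in replicate 2. The 13 subunit genes of the mitochondrial genome summed to 25211 TPM (replicate 1) and 24958 TPM (replicate 2), beside 30236 and 31303 TPM for the 75 nuclear genes. The mitochondrial genes ranged from mt-Nd4l (71.5 TPM) to mt-Atp8 (5560 TPM) and mt-Atp6 (6736 TPM), a wider range than that of the nuclear genes.

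The complexes differed in the level of their subunits. The median subunit level was highest in complex IV (653 ± 57.8 TPM), followed by complex V (545 ± 22.6 TPM), complex III (413 ± 19.9 TPM), complex I (270.2 ± 10.6 TPM) and complex II (189.5 ± 6.08 TPM). The medians of neighbouring complexes did not overlap between libraries: complex IV had 612 and 694 TPM, complex V 529 and 561 TPM, complex III 399 and 427 TPM, complex I 262 and 277 TPM, and complex II 194 and 185 TPM. The single genes did overlap, since complex I alone spanned 13.4-fold. Over all 75 genes the highest level was 34.5-fold above the lowest.

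**Figure D1:**
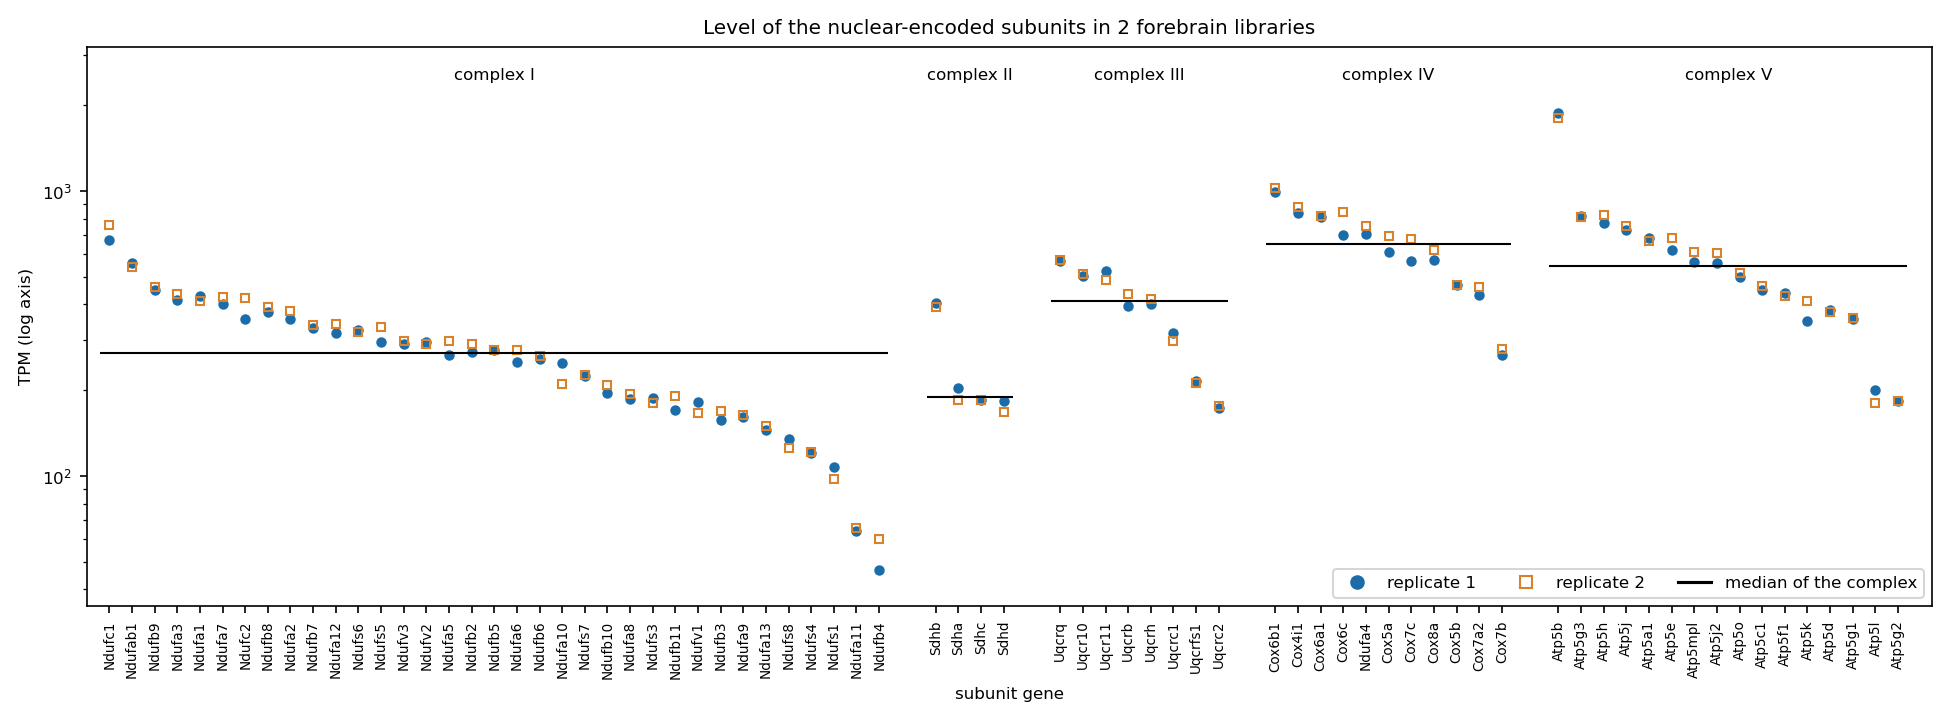
TPM (log axis) of subunit genes in replicate 1 (filled circles) and replicate 2 (open squares), ordered by mean level within each complex, with the median of each complex as a line. The libraries lie close to each other for nearly every gene, Atp5b stands highest at 1842 TPM, and Ndufb4 stands lowest at 53.5 TPM.

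In complex I the 7 catalytic core subunits, which carry the flavin and the iron-sulphur clusters, had a lower median (184 ± 5.27 TPM) than the 29 accessory subunits (282 ± 14.5 TPM). Ndufv2 was the highest of the core subunits, with 295 TPM (replicate 1) and 292 TPM (replicate 2). Ndufs1, the largest of them, was the lowest, with 108 and 97.7 TPM. Core subunits also had longer transcripts, with a median deposited length of 1040 bases against 631 bases for accessory subunits. The highest accessory gene was Ndufc1 (chromosome 3, 51404677 to 51408988, mm10), with 671 TPM (replicate 1) and 759.5 TPM (replicate 2). It was followed by Ndufab1, the mitochondrial acyl carrier protein, with 560 and 540 TPM, and by Ndufb9 with 451 and 460 TPM. On transcripts that GENCODE M21 annotates as protein-coding, the mean was 369 TPM for Ndufc1, 259 TPM for Ndufab1 and 456 TPM for Ndufb9. Their order therefore differs when only those transcripts are counted. The libraries differed by 62.8 TPM (SD) for Ndufc1, more than for any other gene of complex I.

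The lowest subunit genes of complex I were Ndufb4 and Ndufa11, both parts of its membrane arm. Ndufb4 had 46.8 TPM (replicate 1) and 60.1 TPM (replicate 2), and Ndufa11 had 64.3 and 65.9 TPM. The deposited length of Ndufa11, by which its count is divided, was 2661 bases, from 1 transcript, while its longest coding sequence is 432 bases. Ndufb4 shared reads with a pseudogene, so that its level depends on how reads were assigned.

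Complex II, the succinate dehydrogenase, has 4 subunits, all nuclear. Sdhb, the iron-sulphur subunit, had 403 TPM (replicate 1) and 392 TPM (replicate 2). Sdha, the flavoprotein bound to it in equal number, had 203 and 185 TPM, so that Sdhb stood 2.05 ± 0.0907 times higher. The membrane anchor Sdhc (185 and 185 TPM) differed from Sdha by less than the SD of Sdha (12.3 TPM). The other anchor, Sdhd (184 and 168 TPM), was below Sdha in each library.

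In complex III the 5 small subunits had a median of 505 ± 11.4 TPM and exceeded the larger ones. Uqcrq had 567 TPM (replicate 1) and 571 TPM (replicate 2), Uqcr10 had 503 and 510 TPM, and Uqcr11 had 524 and 487 TPM. Uqcr10 and Uqcr11 overlapped. Uqcrfs1, the Rieske iron-sulphur protein, had 215 and 212 TPM. The core proteins Uqcrc1 (318 and 297 TPM) and Uqcrc2 (174 and 176 TPM), which form a dimer with each other, differed 1.76 ± 0.101 times. Cyc1, the cytochrome c1 of complex III that falls outside the symbol rule, had 332 and 300.2 TPM, within the range of its partners. Cycs, the mobile cytochrome c, was lower, with 59.4 and 65.4 TPM.

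Complex IV, the cytochrome c oxidase, was led by Cox6b1 (chromosome 7, 30616861 to 30626151, mm10), with 989.5 TPM (replicate 1) and 1028 TPM (replicate 2). Cox4i1, the largest nuclear subunit, had 837 and 878 TPM, and Cox6a1 had 811 and 820 TPM. The lowest were Cox7b (265 and 280 TPM), Cox7a2 (432 and 460.1 TPM) and Cox5b (466 and 469 TPM). Ndufa4 lay between these groups at 709 and 756 TPM.

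In complex V the catalytic head was uneven. Atp5b, the beta subunit that holds the catalytic sites (chromosome 10, 128083273 to 128090391, mm10), had 1883 TPM (replicate 1) and 1802 TPM (replicate 2). It ranked 32nd among protein-coding genes by mean TPM. Atp5a1, the alpha subunit, is present in the enzyme in the same number of copies as beta, and had 684 and 667 TPM. Atp5b therefore stood 2.73 ± 0.0358 times above Atp5a1, and 4.03 ± 0.202 times above the gamma subunit Atp5c1. Transcripts that GENCODE M21 does not annotate as protein-coding held 27.2% and 28.4% of the Atp5b level. They held 4.77% and 8.03% for Atp5a1 and 0% for Atp5c1. On coding transcripts alone the means were 1331 TPM (Atp5b), 633 TPM (Atp5a1) and 457 TPM (Atp5c1). Atp5b was still the highest of these, by smaller ratios. The peripheral stalk subunit Atp5h had 774 and 826 TPM. The lowest were Atp5g2 (183 and 183 TPM) and Atp5l (199.7 and 180.4 TPM), both with reads shared with pseudogenes.

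The c ring, the rotor in the membrane, is encoded by Atp5g1, Atp5g2 and Atp5g3, whose mature proteins are the same and whose import signals differ. Atp5g3 gave 60.2 ± 0.245% of their summed TPM, Atp5g1 26.3 ± 0.21% and Atp5g2 13.5 ± 0.0344%. The sum was 1357 TPM (replicate 1) and 1353 TPM (replicate 2). The order was the same in both libraries and the shares did not overlap. The shares depend on how reads were divided between Atp5g1, Atp5g2 and their pseudogene copies, described below. With the reads on copies returned to the genes, a setting chosen after seeing the data, Atp5g3 would give 47.8 ± 0.371%, Atp5g1 28.1 ± 0.329% and Atp5g2 24.1 ± 0.70%.

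The alternative paralogs were far below their ubiquitous partners, apart from Cox7a2l. Cox4i2, a form of subunit 4 known from lung, from pericytes and from low oxygen (chromosome 2, 152754173 to 152765037, mm10), had 4.01 TPM (replicate 1) and 3.61 TPM (replicate 2). These rest on 56 and 55 expected counts. The log2 ratio of Cox4i2 to Cox4i1, on TPM + 0.1, was -7.78 ± 0.15. All 6 pericyte and smooth muscle markers examined had at least 1 TPM in both libraries, with summed levels of 30.2 and 31.1 TPM, and their part in the Cox4i2 level was not tested. Ndufa4l2, the paralog of Ndufa4 that rises in low oxygen, had 7.68 and 8.48 TPM, with a log2 ratio to Ndufa4 of -6.49 ± 0.03. Cox6b2, known as the testis form, was higher than both, with 15 TPM (replicate 1) and 18.2 TPM (replicate 2). Of 5 testis markers 3 were at 0 counts in both libraries (Tnp1, Prm1 and Pgk2), and the highest, Ddx4, had 0.68 TPM.

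The heart and skeletal muscle forms were at the edge of detection. Cox6a2 (chromosome 7, 128205435 to 128206387, mm10) had 6 counts in replicate 1, or 0.48 TPM with a 95% Poisson interval of 0.177 to 1.05 TPM. It had 1 count in replicate 2, or 0.07 TPM with an interval of 0.00187 to 0.411 TPM. The partner Cox6a1 was above 800 TPM in both libraries, and the log2 ratio of the pair on TPM + 0.1 was -11.34 ± 1.26. That ratio depends on the pseudocount, being -9.34 on TPM + 1, and replicate 2 lay under the level of 3 counts (0.221 TPM). Cox7a1 (chromosome 7, 30184144 to 30186078, mm10) had 24 counts, or 4.07 TPM (2.61 to 6.06), in replicate 1 and 10 counts, or 1.56 TPM (0.747 to 2.86), in replicate 2. Its log2 ratio to Cox7a2 was -7.40 ± 1.00. The counting intervals of the libraries overlapped for both genes. They cover counting error only.

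Replicate 1 was the higher library for Cox6a2 and Cox7a1, and also for the summed muscle markers. The 12 markers of skeletal and heart muscle summed to 54.4 TPM (replicate 1) and 11.6 TPM (replicate 2). The difference lay mainly in Actc1, the cardiac actin, with 32.4 and 2.22 TPM, and in Tnnt2, the cardiac troponin T, with 7.76 and 0.3 TPM. In replicate 2 the highest marker was Mylpf, a myosin light chain of skeletal muscle, with 7.71 and 5.44 TPM. The markers did not all lean one way, since Myh3 (7 and 20 counts) and Tnnt3 (4 and 8 counts) were higher in replicate 2. Of the 12 markers 3 had at least 1 TPM in both libraries, and Myog was at 0 in both. Their part in the levels of Cox6a2 and Cox7a1 was not tested.

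Cox8b, the muscle and brown fat form of subunit 8, and Cox8c had 0 counts in both libraries. With 3 counts per library as the limit that a count of 0 allows, Cox8b was at least 1115-fold lower than Cox8a in replicate 1 and at least 1319-fold lower in replicate 2. For Cox8c the bounds were 1598-fold and 1890-fold. Cox7b2 had 0 counts in replicate 1, at least 869-fold lower than Cox7b, and 1 count in replicate 2, or 0.09 TPM (0.00236 to 0.519). The brown fat markers Ucp1 and Cidea were both under 1 TPM. In contrast Cox7a2l had 151 and 149 TPM, or 26% and 24.5% of its sum with Cox7a2.

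**Figure D2:**
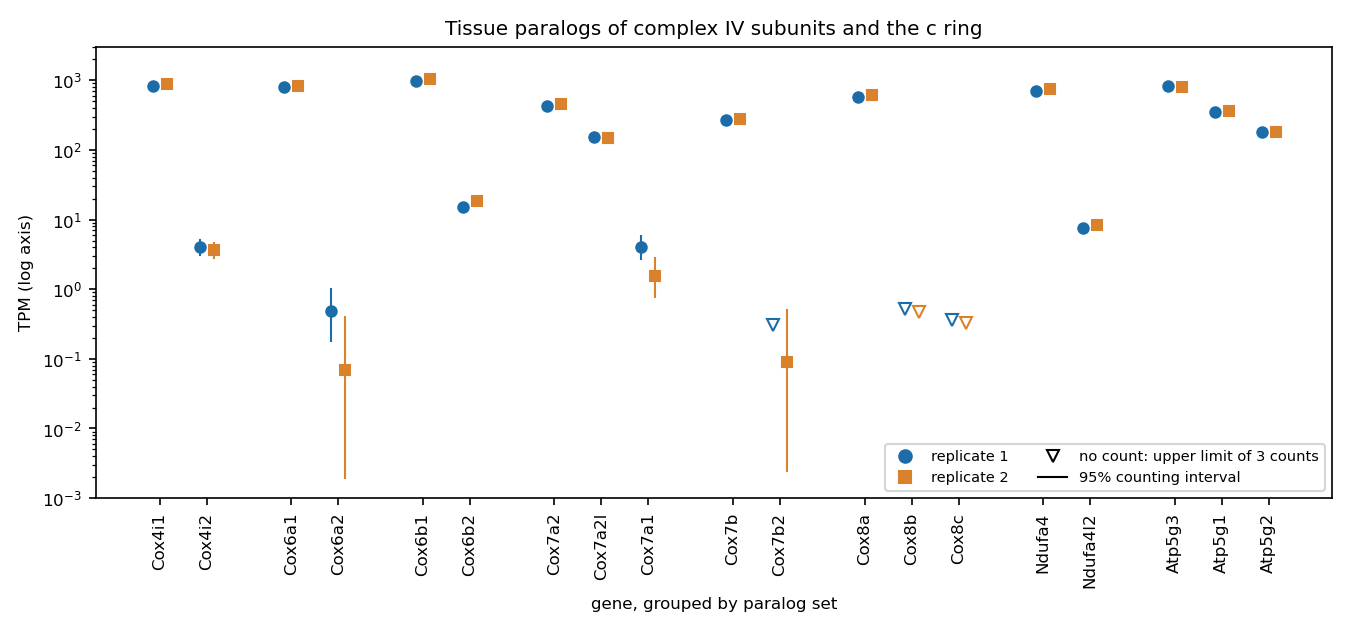
TPM (log axis) of paralog sets in replicate 1 (circles) and replicate 2 (squares), with 95% Poisson counting intervals as vertical lines, and triangles at the level of 3 counts where no count was found. The ubiquitous form lies at 265 TPM or more in every complex IV set, the alternative forms at 18.2 TPM or less except Cox7a2l, and the 3 c ring genes lie within 4.47-fold of each other.

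The promoters of some of these paralogs are shown here because their genes lie at opposite ends of the range of levels. Among them Cox7a2 and Cox7a1 are partners of the same subunit. The lines give the 250 bases before the RefSeq start site on GRCm38.p6, read 5′ to 3′ on the strand of the gene. Capitals mark the words GCGCATGCG, given for the factor NRF1, and CCGGAAG, given for ETS factors such as GABP, on either strand. NRF1 and GABP are known activators of respiratory chain genes. Cox6a1 (chr5:115348959-115349208, minus strand) holds both words, and Cox7a2 (chr9:79759854-79760103, minus strand), Cox7a1 (chr7:30183921-30184170, plus strand) and Cox8b (chr7:140900447-140900696, minus strand) hold none before the start.
Cox6a1: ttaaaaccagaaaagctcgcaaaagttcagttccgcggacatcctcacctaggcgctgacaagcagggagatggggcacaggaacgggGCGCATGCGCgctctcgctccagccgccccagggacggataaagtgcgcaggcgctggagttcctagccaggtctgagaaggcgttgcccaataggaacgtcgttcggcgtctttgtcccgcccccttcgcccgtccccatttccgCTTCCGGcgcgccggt
Cox7a2: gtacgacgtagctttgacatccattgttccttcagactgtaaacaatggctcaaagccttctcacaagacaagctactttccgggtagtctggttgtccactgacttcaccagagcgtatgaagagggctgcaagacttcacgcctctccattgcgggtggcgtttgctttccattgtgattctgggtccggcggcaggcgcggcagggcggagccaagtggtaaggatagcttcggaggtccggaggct
Cox7a1: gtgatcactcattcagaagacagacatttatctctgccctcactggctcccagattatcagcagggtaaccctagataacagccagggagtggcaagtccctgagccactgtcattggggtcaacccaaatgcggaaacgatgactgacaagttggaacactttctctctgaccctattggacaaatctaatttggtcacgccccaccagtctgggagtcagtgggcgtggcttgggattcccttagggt
Cox8b: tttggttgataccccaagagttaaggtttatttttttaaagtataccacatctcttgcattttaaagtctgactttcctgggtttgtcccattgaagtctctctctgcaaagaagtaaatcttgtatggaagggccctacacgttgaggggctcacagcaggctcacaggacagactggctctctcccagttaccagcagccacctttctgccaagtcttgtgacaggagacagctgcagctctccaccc
The 10-base NRF1 match of Cox6a1 reads the same on both strands and starts 162 bases before the start site, and the ETS word of that promoter starts 16 bases before it. CpG content, as the observed over expected ratio in 300 bases around the start, was 1.08 for Cox6a1 and 0.833 for Cox7a2. It was 0.333 for Cox7a1 and 0.115 for Cox8b. A low ratio was also found at abundant subunit genes, with 0.368 for Cox7b (272 TPM) and 0.482 for Ndufc2 (388 TPM).

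RefSeq promoters of 300 bases, from 250 before to 50 after the start, were matched for 76 of the 93 genes and for 16710 protein-coding genes. The NRF1 word was found on either strand in 10 of the 76 promoters, against 2.51% of all promoters. The ETS word was in 17 of 76, against 12.3% of all. The word TCAAGGTCA, given for the oestrogen-related receptors, was in 2 of 76 (Atp5g3 and Sdhd), against 0.329% of all. The word AAGATGGCG, given for YY1, was in 7 of 76, against 2.02% of all. The 4 words are of different letters, and at least 1 of them was in 39.5% of the 76 promoters and in 16.1% of all promoters. Promoters with both the NRF1 and the ETS word were those of Atp5k, Atp5l, Cox6a1 and Uqcr11. None of the 4 words was found in the 5 matched promoters of alternative paralogs, which says only that these letters are absent from those windows. The median CpG ratio was 0.831 for the 76 promoters, 0.432 for the 5 of alternative paralogs and 0.602 for all. These matches are descriptions of sequence and show no binding.

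In all 7 genes the YY1 word was in the sense direction, 10 to 35 bases after the start site. Of the 338 promoters with the word, 74.9% had it in the sense direction and 54.1% had it after the start. The 30 bases around it are shown, with the word in capitals, because the ATG inside it is the annotated start codon in 6 of the 7 genes (all but Ndufaf8), against 38.2% of the 338. The windows lie at chr5:145191499-145191528, minus strand for Atp5j2, chr6:126849096-126849125, minus strand for Ndufa9, chr11:120098934-120098963, plus strand for Ndufaf8, chr3:51408914-51408943, minus strand for Ndufc1, chr13:114388045-114388074, minus strand for Ndufs4, chr13:73328433-73328462, minus strand for Ndufs6 and chr10:80249463-80249492, plus strand for Ndufs7 (GRCm38.p6).
Atp5j2: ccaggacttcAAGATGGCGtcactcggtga
Ndufa9: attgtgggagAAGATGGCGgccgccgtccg
Ndufaf8: ggcagggcccAAGATGGCGgcgccctcgag
Ndufc1: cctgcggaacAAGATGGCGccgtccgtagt
Ndufs4: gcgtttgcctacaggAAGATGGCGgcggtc
Ndufs6: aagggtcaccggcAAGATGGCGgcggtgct
Ndufs7: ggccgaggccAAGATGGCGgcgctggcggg
Of these 7 genes, 5 encode complex I subunits, 1 (Ndufaf8) a complex I assembly factor and 1 (Atp5j2) the f subunit of ATP synthase. Their levels ran from 48.9 TPM (Ndufaf8) to 715 TPM (Ndufc1).

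Many of these genes have processed pseudogenes, copies of their messenger RNA inserted elsewhere in the genome, and the deposited counts of some genes were split with them. At 95% identity over 80% of the copy, 42 copies of 23 genes were found, of which 36 had a value in the tables. They held 14120 expected counts in replicate 1 and 16692 in replicate 2, and 6 copies held 97.0% and 97.7% of these. These 6 were copies of Atp5l, Atp5g2, Ndufb4, Atp5g1, Cox7c and Ndufab1. The same 6 were the only genes of the 93 whose posterior SD of the count exceeded 0.5% of the count in both libraries.

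For 3 of these genes the copies held more reads than the gene. The copies of Ndufb4, mainly Ndufb4c on chromosome 15, took 78.2% of the shared sum in replicate 1 and 77.6% in replicate 2. The copies of Atp5l, mainly Gm10221, took 75.2% and 78.5%, and those of Atp5g2, mainly Gm10175, took 54.4% and 56.3%. The shares were lower for Atp5g1 (26.5% and 24.9%), Cox7c (21.5% and 20.6%) and Ndufab1 (5.27% and 9.56%). Were all these reads from the gene, Atp5l would stand at 823 ± 23.6 TPM, Atp5g2 at 411 ± 12.6 TPM and Ndufb4 at 241 ± 37.8 TPM. Those are 4.33, 2.24 and 4.52 times the deposited levels. The files do not show which locus a shared read came from, so the deposited levels of these genes are uncertain, as is their place at the low end of their complexes.

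**Figure D3:**
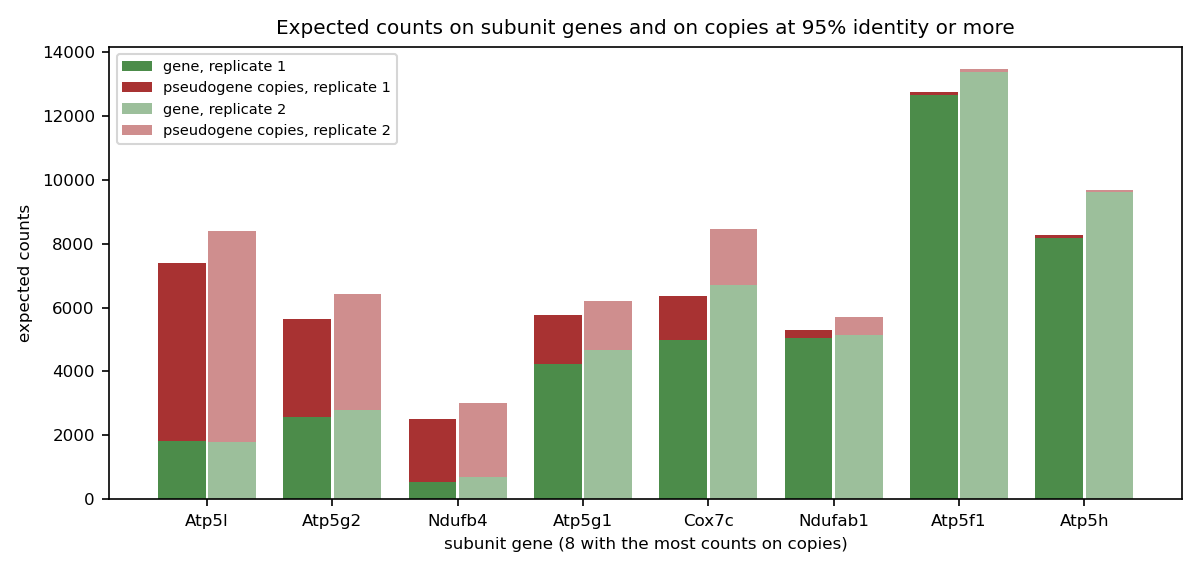
Expected counts (linear axis from 0) on the 8 subunit genes with the most counts on copies, in replicate 1 (left, dark) and replicate 2 (right, pale), with the counts on the gene at the bottom (green) and on its pseudogene copies on top (red). Copies held more counts than the gene for Atp5l, Atp5g2 and Ndufb4 in both libraries, and under 2% for Atp5f1 and Atp5h.

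Cox7c shows why such reads are hard to place. Its coding sequence of 192 bases on chromosome 13 is the same, base for base, as the whole of Gm12338 on chromosome 11. The other copy, Gm10012 on chromosome 17, differs by the substitutions G30C and G107A, with the base of Cox7c first, positions counted from 1 at the A of the start codon, and the base of the copy last. These bases are in capitals below.
Cox7c: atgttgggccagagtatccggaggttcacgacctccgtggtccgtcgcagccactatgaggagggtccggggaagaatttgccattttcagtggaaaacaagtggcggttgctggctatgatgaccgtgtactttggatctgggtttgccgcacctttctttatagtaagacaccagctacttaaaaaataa
Gm10012: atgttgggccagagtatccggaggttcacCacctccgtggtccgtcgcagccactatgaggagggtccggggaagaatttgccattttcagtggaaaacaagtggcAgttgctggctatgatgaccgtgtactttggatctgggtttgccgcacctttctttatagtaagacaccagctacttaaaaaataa
Gm12338 was given 1326 counts in replicate 1 and 1689 in replicate 2, while Gm10012 was given 38.8 and 56.2. Cox7c itself had 4982 and 6713 counts. On the TPM scale Gm12338 stood at 641 and 749 TPM, above Cox7c (566 and 680 TPM), because the deposited effective length is the length minus 99 bases and the copy has only 192.

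The transcript tables divided several subunit genes between coding and other transcripts. In 54 of the 75 genes under 10% of the gene's TPM was on transcripts that GENCODE M21 does not annotate as protein-coding, and the median was 0.856%. In 8 genes it exceeded 50% in both libraries: Ndufa5, Ndufa10, Ndufb4, Atp5j, Atp5f1, Cox5b, Cox7b and Ndufab1. For Ndufa5, a subunit of the peripheral arm of complex I, 92.8% of replicate 1 and 93.1% of replicate 2 lay on such transcripts. Its coding transcripts had 19.3 and 20.6 TPM, against 266 and 297 TPM for the gene. For Ndufa10 the shares were 85.4% and 82.1%, over retained-intron, processed and nonsense-mediated decay transcripts. For Cox5b they were 64.1% and 65.9%, mostly on a processed transcript of 362 bases. Short transcripts gain TPM from few reads, since the effective length is shorter by 99 bases, and 21 of the 75 genes had 1 transcript in the tables. Any transcript absent from GENCODE M21 was counted as not protein-coding. The shares were not taken over all protein-coding genes, so they cannot be called particular to the subunit genes.

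**Figure D4:**
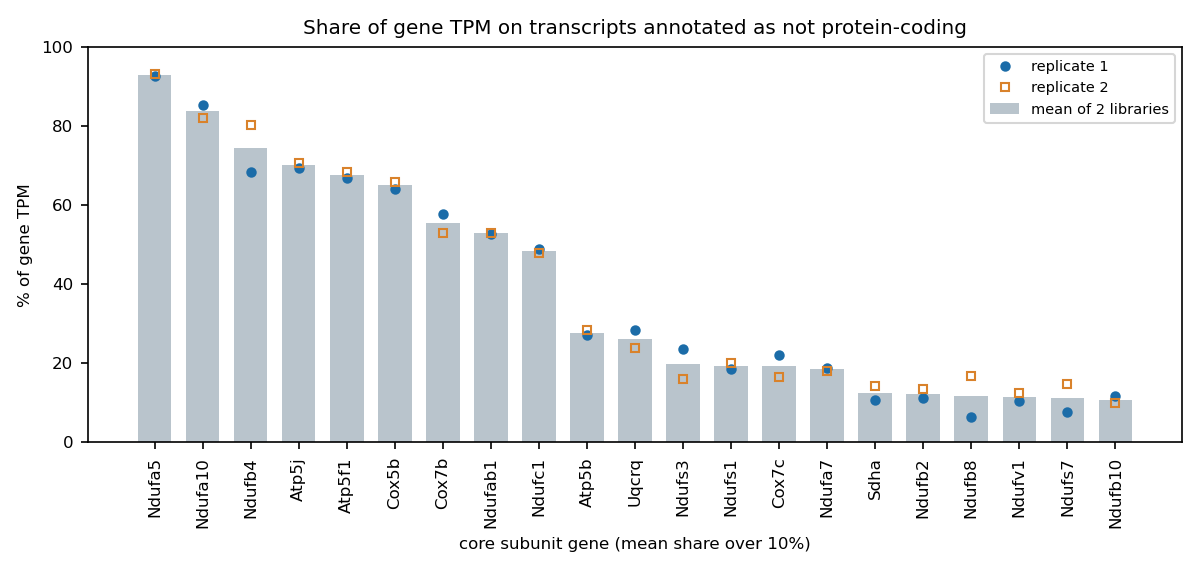
Share of gene TPM on transcripts not annotated as protein-coding (linear axis, 0 to 100%), for the subunit genes with a mean share over 10%, as the mean (bars) and as replicate 1 (circles) and replicate 2 (squares). Both libraries exceed 50% for 8 genes, from Ndufab1 at 52.9% to Ndufa5 at 92.9%, and Ndufc1 follows at 48.4%.

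Some genes were divided among coding forms. Ndufv3, an accessory subunit of complex I, has a short form and a long form with an added exon. The short form, with 315 coding bases, held 92.9% and 94% of its TPM, and the long form, with 1407 coding bases, 6.38% and 5.56%. For Atp5c1, whose forms differ by a short exon near the end of the coding sequence, the form with 897 coding bases held 92.8% and 93.2%, and that with 894 held 4.82% and 4.83%. The main form of Atp5j2 held 84.2% and 84.5%. In Cox7a2l all TPM fell on a transcript with 336 coding bases. No transcript reached a mean of 50% of the gene's TPM in 8 of the 85 genes with at least 10 TPM, namely Cox7b, Ndufa10, Ndufab1, Ndufb5, Cox6b2, Ndufaf1, Ndufaf4 and Ndufaf8. Transcripts not annotated as protein-coding held a mean of 83.8% in Ndufa10, 55.4% in Cox7b, 52.9% in Ndufab1, 49% in Ndufaf8 and 47.2% in Ndufaf4. They held 17.2% in Cox6b2, 7.8% in Ndufaf1 and 1.62% in Ndufb5. This count was not taken over all protein-coding genes.

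Between libraries few of the genes moved far. The log2 ratio of TPM + 1, replicate 2 over replicate 1, was taken for the 89 genes with a mean of at least 10 counts. Of these 3 were past a log2 ratio of 0.32 in either direction, 1 higher and 2 lower in replicate 2, against 11.3% of all protein-coding genes (2.06% higher and 9.23% lower). Ndufb4 was higher (0.36), while Cox7a1 (-0.99) and Atp5s (-0.37) were lower. With TMM scaling of the counts in place of TPM, 6 were higher (Atp5k, Cox6b2, Cox6c, Cox7c, Ndufc1 and Ndufc2) and 1 lower (Cox7a1), against 16.4% of all protein-coding genes in either direction. Ndufb4 and Atp5s were not past the ratio under TMM, so Cox7a1 was the gene past it under both scalings. On TPM with a minimum of 100 counts, 2 of 87 genes were past it, against 9.1% of all protein-coding genes with that minimum. The genes were not matched to all protein-coding genes by their counts. After Ndufb4 the ratios that leaned most to replicate 2, among genes with at least 100 counts, were Cox6b2 (0.27), Cox7c (0.27), Cox6c (0.27) and Ndufc2 (0.24). After Atp5s those that leaned most to replicate 1 were Ndufa10 (-0.24), Ndufaf1 (-0.20), Atp5l (-0.15) and Ndufs1 (-0.14).

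Of the 75 subunit genes 52 were higher in replicate 2 by any amount, against 25.7% of all protein-coding genes. Their median was 0.04 and that of all protein-coding genes -0.10, so the subunit genes stood 0.14 above the rest. With no count minimum the gap was 0.07. TMM moved the median of all genes up by 0.10, and the subunit genes then stood 0.16 above it. Under TMM 70 of the 75 were higher in replicate 2, against 50.2% of all protein-coding genes. Complex IV was higher in replicate 2 for 11 of 11 genes, complex I for 25 of 36, complex V for 10 of 16, complex III for 5 of 8 and complex II for 1 of 4. These counts depended on the scaling, and under TMM they were 11 of 11 (IV), 34 of 36 (I), 15 of 16 (V), 8 of 8 (III) and 2 of 4 (II). Markers of cell types also differed between the libraries. The 6 red blood cell markers summed to 6208 TPM (replicate 1) and 5199 TPM (replicate 2). The 8 forebrain regulators summed to 751 and 869 TPM, with Neurod6, a factor of young cortical neurons, at 145 and 257 TPM. Their part in the differences of the subunit genes was not tested.

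These differences moved with gene length, as they did among all genes. Over the 75 genes the ratio correlated with length at Pearson r = -0.50 (Spearman rho = -0.49), where all points share the same libraries. For length bands, protein-coding genes were limited to those with a mean of at least 100 counts, which all 75 subunit genes had. Subunit genes under 500 bases had a median ratio of 0.08, against 0.12 for the protein-coding genes of that length. From 500 to 700 bases the medians were 0.09 and 0.06, from 700 to 1000 bases 0.01 and 0.00, and from 1000 to 2700 bases -0.04 and -0.09. The median lengths were 545 bases in complex IV and 1214 bases in complex II. The part of length in the differences between complexes was not tested. The level also fell with length over the 75 genes (r = -0.45, rho = -0.51), as a description with shared libraries, and less so when counts were divided by the full length (r = -0.36, rho = -0.43).

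**Figure D5:**
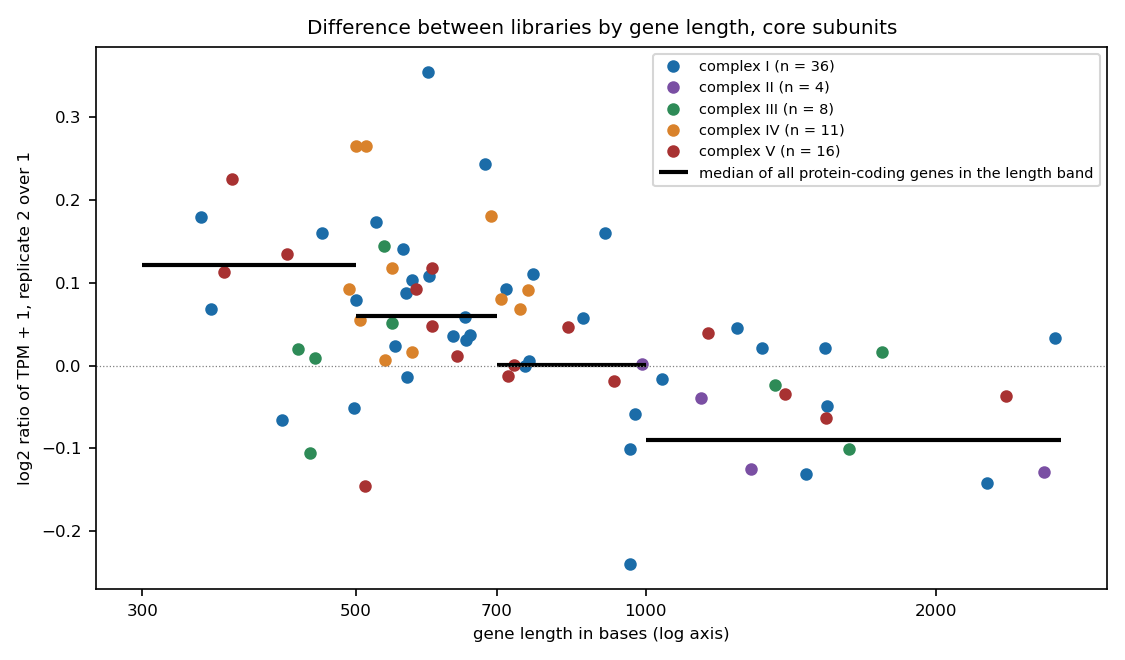
Log2 ratio of TPM + 1 (replicate 2 over replicate 1) against gene length in bases (log axis) for the 75 subunit genes, coloured by complex. Bars give the median of all protein-coding genes with a mean of at least 100 counts, in 4 length bands. The bars fall from 0.12 under 500 bases to -0.09 above 1000 bases, and the subunit genes fall along them, with Ndufb4 highest (0.36) and Ndufa10 lowest (-0.24).

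The factors that assemble the chain were several times lower than the subunits. The 8 Ndufaf genes had a median of 41.4 ± 1.64 TPM. They were led by Ndufaf2 (71 TPM (replicate 1) and 72.3 TPM (replicate 2)) and Ndufaf3 (54.8 and 58 TPM). The lowest were Ndufaf6 (27.5 and 26.3 TPM) and Ndufaf7 (27.1 and 24.8 TPM). The 7 other matched complex I assembly factors, from Nubpl (11.2 TPM) to Foxred1 (34.2 TPM) and Ecsit (38.9 TPM), had a median of 33.3 ± 1.21 TPM. Factors for complex II had a median of 21.7 ± 0.262 TPM, led by Sdhaf4 (100.2 TPM) and Sdhaf2 (24.1 TPM), with Sdhaf3 (6.87 TPM) lowest. Factors for complex III had a median of 35.6 ± 0.442 TPM, led by Uqcc2 (261 TPM) and Uqcc1 (57.9 TPM), with Lyrm7 lowest (11.25 and 8.26 TPM). The 18 factors for complex IV had a median of 36.7 ± 1.36 TPM, led by Coa3 (163 TPM) and Cox14 (152 TPM), with Pet117 (1.84 TPM) lowest. Atpif1, the inhibitor that stops ATP synthase from running backwards, was at the level of the subunits themselves, with 937 TPM (replicate 1) and 1066 TPM (replicate 2). The assembly factors of complex V were lower, from Atpaf1 (26.3 TPM) to Tmem70 (62 TPM).

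The genes of the chain also had close neighbours. A protein-coding gene on the opposite strand started within 1000 bases upstream of 23 of the 93 genes, or 24.7%, against 6.79% of all protein-coding genes. Ndufa7 and the ribosomal gene Rps28 started 10 bases apart, at 413 and 687 TPM. Sdhd and Timm8b, which encodes an import chaperone of the intermembrane space, started 98 bases apart, at 176 and 330 TPM. Others were far apart in level, such as Uqcrq (569 TPM) and the oocyte gene Gdf9 (1.98 TPM), 192 bases apart. The median level of the partners was 18 TPM. The 93 genes lay on 19 chromosomes, with Ndufa1, Ndufb11 and Cox7b on the X chromosome. Exons of 29 of them overlapped an exon on the opposite strand, and the strand setting of the counting is not given, so reads of those pairs may not be told apart. The share of all protein-coding genes with such an overlap was not counted, so the 29 cannot be called many or few.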

How the data were processed

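The deposited tables, 1 gene table and 1 transcript table per library, came from the authors' alignments to the mm10 transcriptome (GENCODE M4), per the metadata deposited with them. Aligner, version, read length and strand setting: not given in the sources used here. Expected counts in the deposited files are estimates by the authors, in which reads shared between features are divided. TPM in the deposited files is the authors' length-corrected abundance over all rows, spike-ins included, and a further TPM column holds posterior means. FPKM, also deposited, is the authors' count per length and depth. The deposited percent of each transcript within its gene was not used, and shares were recomputed from TPM.

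Genes were matched to GENCODE M21 by identifier (42462 of 43346 mouse genes). The members, lists, thresholds and alternatives were chosen with earlier results of these data known. Symbols starting with Sdh were limited to Sdha to Sdhd. The text names the 3 highest and 3 lowest subunits of each complex, all paralogs, every gene under 1 TPM, the 5 largest ratios each way with at least 100 counts, and the extremes of the outside lists. Other genes named, such as those with divergent partners, were chosen after their values were seen. A gene of the chain is not reported here by name or plotted in the figure of levels, though it is in the counts and medians. A count of 0 was read as allowing 3 counts. Counting intervals are exact Poisson intervals at 95%.

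Copies were sought with BLAST 2.17.0. Promoter sequences are from RefSeq (GRCm38.p6), joined by gene identifier. Promoters of Cox4i1, Cox4i2 and Cox6a2 were among the 17 not used here. Expected counts were rounded for the scaling factors of edgeR 4.0.16 (TMM) and DESeq2 1.42.0 in R 4.3.3. No count test was run, since there is 1 group. Python 3.11.15 and pandas 2.3.3 were used, and the comparison of libraries was tested on simulated data.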

Additional observations from a re-analysis of the deposited data

How the results depend on the processing

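The order of the complexes by median level (IV, V, III, I, II) was the same under every setting tried. Counts per kilobase of full length gave medians of 248 (I), 198 (II), 377 (III) and 489 TPM (V). Geometric means in place of medians gave 240.1 (I), 224 (II), 360.3 (III) and 515 TPM (V). FPKM, a smaller unit by construction, gave 174 (I), 122 (II), 266 (III), 421 (IV) and 351 (V). Adding the TPM of pseudogene copies, chosen after seeing the data, gave 732 TPM (IV) and 585 TPM (V). With a pseudocount of 1 the log2 ratio was -7.48 for Cox4i2 over Cox4i1 and -9.34 for Cox6a2 over Cox6a1.

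The genes past a log2 ratio of 0.32 between libraries numbered 3 of 89 (11.3% of all genes), and 7 with TMM (16.4% of all) or with DESeq2 size factors (16.5%), where the all-gene median moves up. At 1.5-fold there was 1, Cox7a1 (2.05% of all). At 90% identity 62 copies had a value in the tables. With 1 mismatch allowed, the NRF1 word was in 27 promoters (13.2% of all), the ERR word in 10 (6.18%) and the YY1 word in 17 (8.96%). Without replicate 1 or without replicate 2, complex IV had 694 and 612 TPM, and Cox6a2 over Cox6a1 was -12.24 and -10.45. With reads on copies returned, Atp5g2 gave 24.1% of the c ring sum in place of 13.5%. Of 81 alternatives 54 left their result within the spread used or within 1.5 times the count, and 27 moved it. The spread was the SD of 2 libraries, except for the median ratio between libraries, where it was the SD over the genes. On that spread the change of the median ratio from 0.0313 to 0.146 with TMM was scored as unmoved. For complex medians and paralog ratios, leaving out 1 of 2 libraries can hardly move a result past their SD, so those alternatives say little. No paired analysis was possible because there is 1 group.

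Depth limits Cox6a2, Cox7a1, Cox7b2, Cox8b and Cox8c, which had 24 counts or fewer in each library. With 2 libraries an SD is itself imprecise.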

Other observations

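Factors known to regulate these genes were measured in the same libraries. The 14 examined had a median of 19.5 ± 1.35 TPM, and 12 had at least 1 TPM in both libraries. Tfam, a factor for the packaging and transcription of the mitochondrial genome, had 64.7 TPM (replicate 1) and 61.4 TPM (replicate 2). Nrf1 had 60.3 and 55.3 TPM, and Gabpb1, a subunit of GABP, had 57.4 and 57.4 TPM. The coactivators were lower, with 3.84 and 3.91 TPM for Ppargc1a, 0.63 and 0.67 TPM for Ppargc1b, and 18.5 and 21.8 TPM for Pprc1. Esrrb was lowest with 4 and 11 counts, or 0.05 and 0.11 TPM.

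Genes linked to the function of the chain covered a wide range. Chchd2, a mitochondrial protein that binds complex IV, had 886 and 880 TPM, and Higd2a, which acts in complex IV assembly, had 171 and 171 TPM. Mxi1 was the lowest of that list at 9.74 and 11.9 TPM. Among other electron carriers Etfb, a subunit of the electron transfer flavoprotein, had 130.4 and 131.9 TPM, and the testis cytochrome Cyct had 1 count in replicate 1 and 0 in replicate 2.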
